A study of Mus musculus with 8 samples.

Results

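Transforming growth factor beta (TGF-beta) signalling was described through 10 listed genes in sorted mouse regulatory T cells, a class of CD4 T cell that keeps other immune cells in check. The genes cover the cytokine and its release (Tgfb1, Lrrc32, Itgb8), the receptors (Tgfbr1, Tgfbr2), the SMAD proteins that carry the signal (Smad2, Smad3, Smad4) and inhibitors of the pathway (Smad7, Ski). They were looked up by gene symbol in the annotation of the array. Of the 10 genes, 8 were found, with 18 probe sets among them, out of 17097 named genes in all; Lrrc32 and Itgb8 had no named probe set and were not analysed here. Where a gene had several probe sets, the brightest of them on average gave its main value.

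TGF-beta is secreted in a latent complex, in which its own propeptide encloses the mature cytokine. On regulatory T cells the complex is held at the surface by GARP, the product of Lrrc32, and is opened by the integrin with the beta 8 chain. Free TGF-beta binds the type II receptor, which phosphorylates the type I receptor, and this kinase phosphorylates SMAD2 and SMAD3; these enter the nucleus with SMAD4. The pathway supports Foxp3 expression in T cells that acquire a regulatory fate outside the thymus.

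The 4 RaptorKO samples came from CD4(cre)Raptor(fl/fl) mice, whose floxed Rptor alleles are cut by a Cre under Cd4 control, and the 4 WT samples from wild-type mice. Rptor encodes Raptor, the scaffold of the kinase complex mTORC1. Both groups were on the C57Bl/6J background, and both were CD4+CD25+ cells from spleen and peripheral lymph nodes, used without treatment; ages are not given in the sources used here. Cd4-driven Cre acts in the T cell lineage as a whole and not in regulatory T cells alone, and the labels do not say whether WT mice carried Cre or floxed alleles, nor whether each sample was a different mouse. The p-values therefore rest on the variation among these 8 samples alone, and some of it may be technical. The comparison asks which transcripts of the TGF-beta pathway differ in regulatory T cells with and without Raptor.

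The labels were checked first, on the log2 intensity scale of the deposited values. Array medians lay between 5.21 and 5.29, and the number of arrays limits the precision. All 7 regulatory T cell and CD4 T cell markers checked, Foxp3, Il2ra and Cd4 among them, exceeded the filter for dim probe sets that is set out with the tests. Of the 7, groups did not overlap for 1 higher and 2 lower in RaptorKO, against 3.73% and 5.09% of all genes tested. None of the 7 was called in limma. Foxp3, the transcription factor that defines the lineage, lay between 10.96 and 11.04 in RaptorKO and between 10.79 and 10.96 in WT (difference 0.12, limma adjusted p = 0.664). Il2ra, which encodes the CD25 used in the sort, differed by 0.030 (limma adjusted p = 0.949), and Cd4, whose product was used too, by -0.22 with groups that did not overlap (limma adjusted p = 0.362). The main probe set of Rptor read 6.63, 6.47, 6.50 and 6.95 in RaptorKO 1 to 4, against 6.83, 6.85, 7.03 and 6.75 in WT 1 to 4 (difference -0.23, limma adjusted p = 0.491). A dimmer Rptor probe set lay between 5.37 and 5.74 in RaptorKO and between 5.89 and 6.14 in WT. The second did not overlap between groups (difference -0.42, limma over every probe set, adjusted p = 0.12). Whether these probe sets read inside the exons that Cre removes could not be settled here, so Rptor does not decide on the labels. Replicates 1 and 2 of both genotypes had high Xist (10.88 to 11.18 over both genotypes) and replicates 3 and 4 low Xist (5.04 to 5.62). The Y-linked gene Eif2s3y was low in replicates 1 and 2 (2.92 to 3.36) and high in replicates 3 and 4 (7.70 to 8.19). Replicates 1 and 2 thus had a female pattern of these genes and replicates 3 and 4 a male pattern, in both genotypes. These pairs of arrays are called the replicate sets from here on.

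None of the 8 measured TGF-beta genes passed the test between genotypes. A gene was tested when its probe set exceeded the 40th percentile of its array on at least 4 arrays, and all 8 did so on all 8 arrays. With limma and Benjamini-Hochberg adjustment over the 11413 genes tested, 0 of 8 had an adjusted p under 0.05, against 1.96% of all genes tested. At an unadjusted p under 0.05 there was 1 of the 8, Tgfbr1, against 13% of all genes tested. The differences, RaptorKO minus WT on the log2 scale, ran between -0.14 and 0.33 with a median of -0.0095, and 4 were positive and 4 negative. The median over all genes tested was -0.0092. The median size of the difference without its sign was 0.070 for the 8 genes and 0.11 for all genes tested, and the median standard deviation (SD) within groups was 0.16 and 0.18. For 7 of the 8 genes, all but Tgfbr1, the 95% interval of the limma fit lay within a change of 1.5-fold in either direction, as it did for 85.2% of all genes tested. Over all genes, 224 were called, and this count moved by more than 1.5 times without RaptorKO 1 (133), RaptorKO 3 (144), WT 1 (121), WT 2 (149), WT 3 (118) or WT 4 (98). The count for the 8 TGF-beta genes was 0 without any single array.

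**Figure D1:**
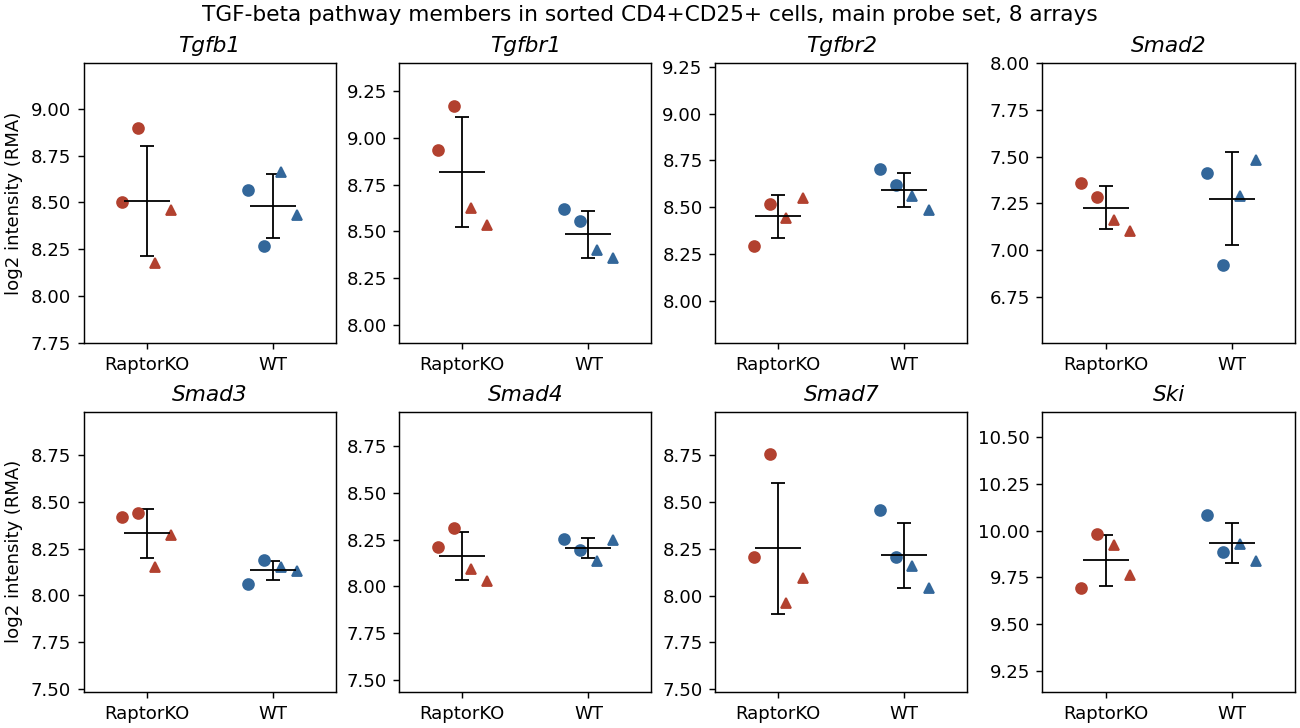
Log2 intensity (y axis) of the main probe set of each of the 8 TGF-beta genes in the 4 RaptorKO arrays (red, left) and the 4 WT arrays (blue, right); circles are replicates 1 and 2, triangles replicates 3 and 4, and bars give the mean and SD. Every panel spans the same range on the log2 scale, and in every panel the groups overlap.

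Individual probe sets of 3 genes separated the genotypes. Each probe set was also tested on its own, over 27343 probe sets. Of the 18 probe sets of the TGF-beta genes 17 were tested, and 0 had an adjusted p under 0.05 with limma, against 1.11% of all probe sets. At an unadjusted p under 0.05 there were 5, against 11.6% of all. In 4 of the 17 the RaptorKO and WT arrays did not overlap, against 8.07% of all probe sets tested. These 4 were 2 probe sets of Tgfbr1 and 1 of Smad3, all higher in RaptorKO, and 1 of Ski, lower in RaptorKO. Probe sets of a gene share the same RNA samples and are not independent of each other.

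**Figure D2:**
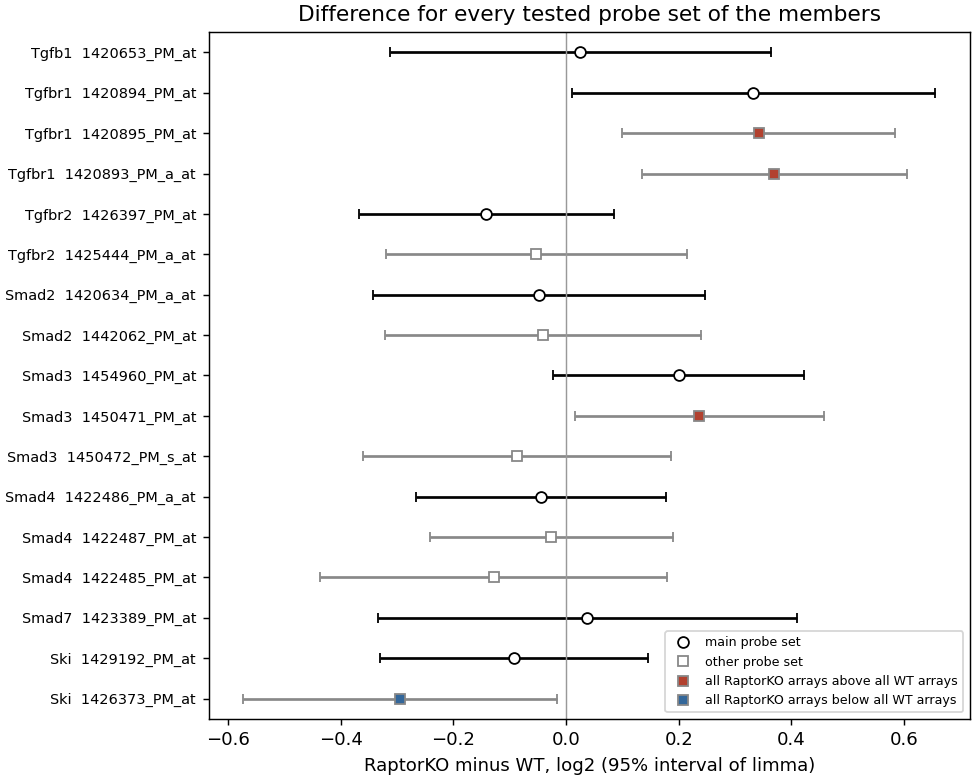
Difference between RaptorKO and WT (x axis, log2) with the 95% interval of limma for the 17 tested probe sets of the TGF-beta genes; circles are main probe sets, squares other probe sets, and a red or blue fill marks a probe set whose RaptorKO arrays all lie above or all below the WT arrays. The 3 Tgfbr1 probe sets lie between 0.33 and 0.37.

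The promoter windows of the 3 genes with such a probe set are shown, since these are the genes with a probe set that separated the genotypes. The windows come from RefSeq (GRCm38.p6) and hold 250 bases before and 50 bases after the annotated start of the gene. RefSeq windows were found for 6 of the 10 listed genes. They lie at chr4:47352972-47353271 on the + strand for Tgfbr1, chr9:63757945-63758244 on the - strand for Smad3 and chr4:155222486-155222785 on the - strand for Ski. Capitals mark the core of the SMAD-binding box, AGAC or its reverse complement GTCT, and the GC box, GGGCGG or CCGCCC, which is bound by Sp1 family factors.
Tgfbr1: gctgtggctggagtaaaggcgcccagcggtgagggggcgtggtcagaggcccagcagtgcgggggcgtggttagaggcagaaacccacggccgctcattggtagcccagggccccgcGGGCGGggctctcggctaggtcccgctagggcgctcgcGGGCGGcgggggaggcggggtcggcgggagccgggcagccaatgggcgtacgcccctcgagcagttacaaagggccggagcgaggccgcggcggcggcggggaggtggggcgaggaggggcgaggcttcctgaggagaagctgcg
Smad3: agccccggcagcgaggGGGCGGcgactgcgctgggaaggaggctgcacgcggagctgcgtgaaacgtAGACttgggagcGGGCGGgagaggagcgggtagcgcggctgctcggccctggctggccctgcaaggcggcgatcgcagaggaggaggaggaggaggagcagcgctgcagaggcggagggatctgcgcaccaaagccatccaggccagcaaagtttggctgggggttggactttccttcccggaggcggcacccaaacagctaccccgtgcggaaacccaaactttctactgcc
Ski: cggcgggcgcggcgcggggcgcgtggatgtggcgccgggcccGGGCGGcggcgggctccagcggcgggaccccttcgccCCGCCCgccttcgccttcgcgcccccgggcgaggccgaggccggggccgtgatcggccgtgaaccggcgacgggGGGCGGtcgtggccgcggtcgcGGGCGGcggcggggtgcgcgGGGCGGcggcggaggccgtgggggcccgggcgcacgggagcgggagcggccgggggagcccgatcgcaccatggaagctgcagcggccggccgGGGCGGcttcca
The AGAC core was found 1 time in the Smad3 window and 0 times in the Tgfbr1 and Ski windows, on either strand; 88% of the 32851 RefSeq windows hold it. The GC box was found 2 times in Tgfbr1, 2 times in Smad3 and 6 times in Ski, and 35.7% of all windows hold at least 1. No AGAC match overlapped a GC box. The TATA box (TATAAA or TTTATA) was found in none of the 3 windows and in 13.6% of all. G and C made up 74.7% of the Tgfbr1 window, 67.7% of the Smad3 window and 85.3% of the Ski window. The median over all windows was 52.7%. The motif counts were not compared with windows of like base composition. The matches are letters in a window and not measured binding sites.

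Among the genes of the cytokine itself, Tgfb1 encodes the main TGF-beta isoform of lymphocytes. It read 8.50, 8.90, 8.18 and 8.46 in RaptorKO 1 to 4, against 8.57, 8.27, 8.66 and 8.43 in WT 1 to 4. The groups overlapped fully around similar means, with the highest and the lowest value both in RaptorKO. The difference was 0.025 (SE 0.15, 95% interval -0.30 to 0.35, limma adjusted p = 0.97). Its sign turned without RaptorKO 2 (-0.10) or WT 2 (-0.046), so no direction was resolved. The genes of the other isoforms, Tgfb2 and Tgfb3, lay under the 40th percentile of their array on all 8 arrays and were not tested.

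Tgfbr1, the type I receptor kinase that phosphorylates SMAD2 and SMAD3, had the largest difference of the 8 genes. Its main probe set (1420894_PM_at) read 8.94, 9.17, 8.63 and 8.53 in RaptorKO 1 to 4, against 8.62, 8.56, 8.40 and 8.36 in WT 1 to 4. RaptorKO 4 lay below WT 1 and WT 2, so the groups overlapped, but within each replicate set both RaptorKO arrays lay above both WT arrays. The means were 8.82 ± 0.29 in RaptorKO and 8.48 ± 0.12 in WT (SD, n = 4 each). The difference was 0.33 (SE 0.14, 95% interval 0.021 to 0.64), or 1.26-fold, and did not pass the test (limma adjusted p = 0.341); 11.3% of all genes tested had a smaller p.

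Both other Tgfbr1 probe sets gave differences of the same size with groups that did not overlap. The first (1420895_PM_at) read 8.32, 8.38, 8.22 and 8.15 in RaptorKO, against 8.12, 7.78, 7.84 and 7.97 in WT. The second (1420893_PM_a_at) read 7.95, 8.10, 8.16 and 8.08 in RaptorKO, against 7.89, 7.55, 7.65 and 7.73 in WT. The lowest RaptorKO array lay just above the highest WT array, WT 1, in both. Their differences were 0.34 (SE 0.11, limma over every probe set, adjusted p = 0.22) and 0.37 (SE 0.11, adjusted p = 0.162). Averaged over all 3 probe sets, the Tgfbr1 difference was 0.35 (limma adjusted p = 0.101). On the main probe set, replicates 1 and 2 alone gave 0.47 and replicates 3 and 4 alone 0.20, and the difference was 0.21 without RaptorKO 2. It stayed positive in all 23 alternative fits (0.20 to 0.50) and passed in none of them, with adjusted p between 0.0885 and 0.567.

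The samples are bulk RNA, in which fewer cells of a type and less RNA per cell cannot be told apart. Macrophage and monocyte markers, listed because macrophages also express TGF-beta receptors, had a higher mean in RaptorKO for 11 of 11 genes, of which 7 passed the filter. Their mean level ran between 5.30 and 5.90 in RaptorKO and between 4.84 and 5.63 in WT. Within each replicate set both RaptorKO arrays lay above both WT arrays. The levels were 5.30 and 5.37 against 4.84 and 5.10 in replicates 1 and 2. In replicates 3 and 4 they were 5.90 and 5.89 against 5.59 and 5.63. The 7 were Csf1r, Lyz2, Cd68, C1qa, C1qb, C1qc and Vcam1, with differences between 0.23 and 0.68, none of them called in limma, while Adgre1 and Mertk lay under the 40th percentile on all 8 arrays. With the level of these markers as a covariate the Tgfbr1 difference was 0.50 (limma adjusted p = 0.0885). In both genotypes this level was higher in replicates 3 and 4 than in replicates 1 and 2, so the covariate also carries the replicate set. A term for the replicate set alone left the Tgfbr1 difference at 0.33 (limma adjusted p = 0.156). The separate part of macrophages was not tested. The genes listed for conventional CD4 T cells had a lower mean in RaptorKO for 6 of 6, with levels between 8.39 and 8.54 in RaptorKO and between 8.60 and 8.75 in WT, and their part in the differences was not tested. Of the CD8 T and NK cell markers 2 of 7 had a higher mean in RaptorKO, and their mean level ran between 5.27 and 5.47 in RaptorKO and between 4.98 and 6.11 in WT. Some single markers differed more than any TGF-beta gene without being called, and the examples given were picked after their values were seen. Cd8a differed by -1.03, Cd8b1 by -0.77, Nkg7 by 0.87 with no overlap and the erythroid Hba-a1 by 1.10. Their limma adjusted p lay between 0.103 and 0.341. The other erythroid markers on the array had a lower mean in RaptorKO. Further markers of the lists also differed by more than any TGF-beta gene. B cell markers had a higher mean in RaptorKO for 4 of 5 genes (5.72 to 6.16 in RaptorKO, 5.15 to 6.37 in WT), and erythroid markers for 1 of 3. The part of these markers in the TGF-beta gene differences was not tested either. Platelet markers, listed because platelets are rich in TGF-beta, ran between 4.66 and 4.80 in RaptorKO and between 4.63 and 4.77 in WT.

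Tgfbr2, the type II receptor that binds the cytokine first, read 8.29, 8.52, 8.44 and 8.55 in RaptorKO 1 to 4, against 8.70, 8.62, 8.56 and 8.48 in WT 1 to 4. The lowest value was in RaptorKO and the highest in WT, and the groups overlapped. The difference was -0.14 (SE 0.10, 95% interval -0.36 to 0.078, limma adjusted p = 0.64). A second probe set differed by -0.053 (SE 0.12, adjusted p = 0.931), and the remaining one lay between 2.02 and 2.28 over all arrays, under the 40th percentile, and was not tested. The receptor partners thus had point estimates of opposite sign, 0.33 for Tgfbr1 and -0.14 for Tgfbr2, and neither passed.

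Of the receptor-regulated SMADs, Smad3 had the larger difference. Its main probe set (1454960_PM_at) read 8.42, 8.44, 8.15 and 8.32 in RaptorKO 1 to 4, against 8.06, 8.19, 8.15 and 8.13 in WT 1 to 4. All RaptorKO arrays but RaptorKO 3 lay above all WT arrays. The difference was 0.20 (SE 0.099, 95% interval -0.017 to 0.42, limma adjusted p = 0.435).

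A second Smad3 probe set (1450471_PM_at) read 7.36, 7.30, 7.49 and 7.19 in RaptorKO, against 7.03, 7.14, 7.14 and 7.09 in WT, with no overlap. It differed by 0.24 (SE 0.10, limma over every probe set, adjusted p = 0.382). The last (1450472_PM_s_at) went the other way, with a difference of -0.088 (SE 0.12, adjusted p = 0.875) and overlapping groups. By the naming convention of these arrays its suffix marks probes that may match transcripts of more than 1 gene. Averaged over its probe sets Smad3 differed by 0.12 (limma adjusted p = 0.587), so the size of the Smad3 difference depended on the probe set chosen.

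Smad2, the other receptor-regulated SMAD of the pathway, read 7.36, 7.28, 7.16 and 7.10 in RaptorKO 1 to 4, against 7.41, 6.92, 7.29 and 7.48 in WT 1 to 4. The RaptorKO values all lay inside the WT range. The difference was -0.048 (SE 0.13, 95% interval -0.33 to 0.24, limma adjusted p = 0.935), and it was 0.020 without WT 4. The second Smad2 probe set differed by -0.041 (SE 0.13).

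Smad4, the partner that all receptor-regulated SMADs share, read 8.21, 8.31, 8.09 and 8.03 in RaptorKO 1 to 4, against 8.25, 8.19, 8.14 and 8.25 in WT 1 to 4. The WT values lay within the RaptorKO range. The difference was -0.044 (SE 0.098, 95% interval -0.26 to 0.17, limma adjusted p = 0.92), and its sign turned without RaptorKO 4 (0.000102). The other Smad4 probe sets differed by -0.026 and -0.13, and their groups overlapped.

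Smad7, the inhibitory SMAD that TGF-beta itself induces, read 8.20, 8.76, 7.96 and 8.09 in RaptorKO 1 to 4, against 8.46, 8.21, 8.16 and 8.04 in WT 1 to 4. RaptorKO 2 held the highest value and RaptorKO 3 the lowest. The difference was 0.037 (SE 0.16, 95% interval -0.32 to 0.40, limma adjusted p = 0.959), and it was -0.13 without RaptorKO 2 and -0.020 without WT 4. RaptorKO 2 was also the highest of the 8 arrays for the main probe sets of Tgfb1, Tgfbr1, Smad3 and Smad4. For Tgfbr2 and Ski the highest was WT 1, and for Smad2 it was WT 4. Without RaptorKO 2 the Smad3 difference was 0.16.

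Ski, a corepressor that binds SMAD complexes, was read by a pair of probe sets that differed in size of difference. The brighter (1429192_PM_at) read 9.69, 9.98, 9.93 and 9.76 in RaptorKO 1 to 4, against 10.08, 9.89, 9.93 and 9.84 in WT 1 to 4, with overlap. It differed by -0.092 (SE 0.11, 95% interval -0.32 to 0.14, limma adjusted p = 0.811).

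The dimmer Ski probe set (1426373_PM_at) read 8.94, 8.92, 8.60 and 8.52 in RaptorKO, against 9.20, 9.02, 8.95 and 8.98 in WT. All RaptorKO arrays lay below all WT arrays, with RaptorKO 1 (8.943) and WT 3 (8.946) nearly equal. The difference was -0.29 (SE 0.13, limma over every probe set, adjusted p = 0.392). Averaged over both probe sets Ski differed by -0.19 (limma adjusted p = 0.414).

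The replicate sets were compared for each gene. Tgfb1 differed by 0.28 within replicates 1 and 2 and by -0.23 within replicates 3 and 4, the widest gap of the 8 genes, and the change between sets, -0.51, was not called (adjusted p = 0.466 for the interaction in limma). Smad2 (0.16 and -0.25), Smad4 (0.041 and -0.13) and Smad7 (0.15 and -0.074) also had opposite signs in the 2 sets. Tgfbr1 (0.47 and 0.20) and Smad3 (0.30 and 0.099) were positive in both, and Tgfbr2 (-0.26 and -0.025) and Ski (-0.15 and -0.036) negative in both. None of these 8 interactions passed, with adjusted p between 0.466 and 0.838. Over all genes 0 of 11413, or 0%, passed the interaction test in limma, and 1304, or 11.4%, had an unadjusted p under 0.05. Tested within 1 set at a time, 0 of the 8 genes were called, against 0.0789% of all genes in replicates 1 and 2 and 0.745% in replicates 3 and 4.

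**Figure D3:**
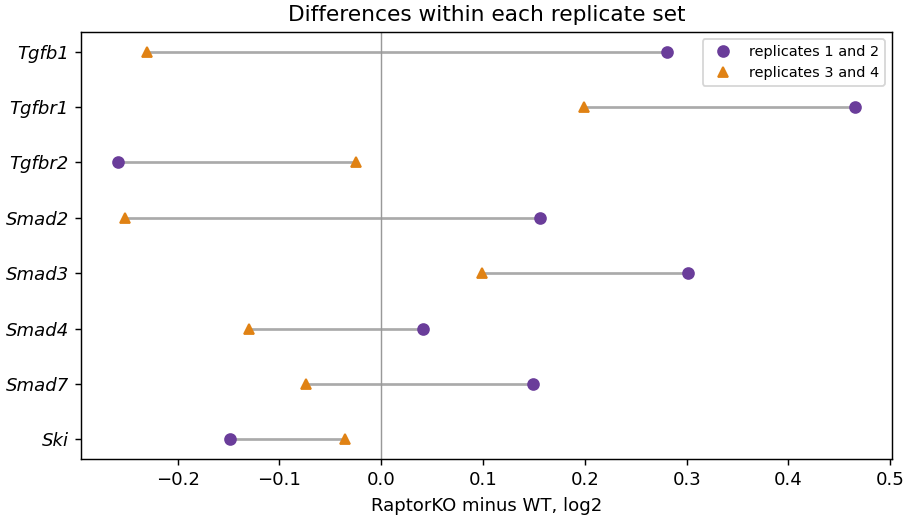
Difference between RaptorKO and WT (x axis, log2) of the main probe set of each TGF-beta gene within replicates 1 and 2 (circles) and within replicates 3 and 4 (triangles), each from 2 RaptorKO and 2 WT arrays. Tgfbr1 and Smad3 lie right of 0 in both sets, Tgfbr2 and Ski left of 0 in both, and the other 4 genes change sign.

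The rest of the pathway was described through 5 lists of 86 further genes, each gene counted once. Of these, 81 were named on the array and 64 passed the filter. In RaptorKO 0 rose and 2 fell, against 0.824% and 1.14% of all genes tested, and the median difference was 0.048. At an unadjusted p under 0.05 there were 5 higher and 5 lower, against 5.55% and 7.49% of all genes tested. Groups did not overlap for 3 genes higher and 3 lower in RaptorKO, against 3.73% and 5.09% of all genes tested. The genes that fell were Nrp1 and Gpr15. The lists were chosen with earlier results of these data known, so their counts are not an independent comparison with all genes.

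Nrp1, a semaphorin receptor that has also been reported to bind latent TGF-beta, was placed in the list of latency and activation. It read 7.46, 7.79, 7.87 and 7.58 in RaptorKO 1 to 4, against 9.23, 8.68, 9.31 and 9.26 in WT 1 to 4. The groups were far apart, and the lowest WT array was WT 2. Nrp1 fell by 1.44 on the log2 scale (SE 0.15, 95% interval -1.78 to -1.11, limma adjusted p = 0.000736). All 3 Nrp1 probe sets were called when each was tested alone, with differences of -1.34, -1.47 and -1.44. The call held without any single array (-1.59 to -1.37), and it was lost within replicates 1 and 2 alone (-1.33, limma adjusted p = 0.134).

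Of the list of latency and activation 7 of 16 genes were tested, and Nrp1 was the only one called, against 1.96% of all genes tested. The list median was -0.15. The 8 named genes that were too dim to test included Tgfb2, Tgfb3 and Itgb6, and Thbs1 had no named probe set. A pair of genes is named after their values were seen. Itgav, the alpha chain that pairs with the beta 8 chain to release TGF-beta, lay between 6.65 and 7.04 in RaptorKO and between 7.19 and 7.37 in WT, with no overlap (difference -0.32, SE 0.11, limma adjusted p = 0.214). Nrros, a relative of GARP that holds latent TGF-beta on myeloid cells, lay between 8.17 and 8.71 in RaptorKO and between 7.94 and 8.22 in WT (difference 0.41, SE 0.13, limma adjusted p = 0.153). The macrophage markers given above also had a higher mean in RaptorKO, and their part in the Nrros difference was not tested.

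Receptors of the wider TGF-beta family had 0 called of 8 tested, with 6 positive and 2 negative and a median of 0.12. In limma 1 had an unadjusted p under 0.05, against 13% of all genes tested. Tgfbr3, the coreceptor betaglycan, read 6.73, 6.98, 6.49 and 6.81 in RaptorKO 1 to 4, against 6.71, 6.32, 6.16 and 6.46 in WT 1 to 4, with overlap. It differed by 0.34 (SE 0.14, limma adjusted p = 0.313), by 0.34 in each replicate set, and by 0.096 when averaged over its probe sets (limma adjusted p = 0.776). Acvr1b, a type I activin receptor that also acts through SMAD2 and SMAD3, differed by 0.21 (SE 0.11, limma adjusted p = 0.462), with 0.35 in replicates 1 and 2 and 0.070 in replicates 3 and 4. Averaged over its probe sets the Acvr1b difference was 0.062 (limma adjusted p = 0.845).

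Other SMADs, SMAD partners and regulators had 0 called of 26 tested, 13 positive and 13 negative, with a median of -0.017. In limma 2 had an unadjusted p under 0.05, against 13% of all genes tested. Those 2 were Tgif1 and Smurf1. Tgif1, a homeodomain corepressor of SMAD proteins, read 7.62, 7.92, 7.66 and 8.34 in RaptorKO 1 to 4, against 7.60, 7.33, 7.26 and 7.36 in WT 1 to 4. The groups did not overlap, with RaptorKO 1 just above WT 1, and the difference was 0.50 (SE 0.15, limma adjusted p = 0.158). Smurf1, a ubiquitin ligase that SMAD7 brings to the type I receptor, read 6.74, 7.22, 6.33 and 6.67 in RaptorKO 1 to 4, against 7.33, 7.19, 7.15 and 7.13 in WT 1 to 4. Only RaptorKO 2 reached the WT range. Smurf1 differed by -0.46 (SE 0.16, limma adjusted p = 0.208). It was called in 1 of 23 alternative fits, the one without RaptorKO 2 (-0.62, limma adjusted p = 0.0281). In the others the limma adjusted p ran up to 0.64.

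Genes that TGF-beta is known to induce or repress, in T cells or other cells, formed the last lists, and Skil and Tgif1 stood in 2 of the 5 lists. Of the induced genes 12 of 16 were tested. In RaptorKO 0 rose and 1 fell, against 0.824% and 1.14% of all genes tested, and the median was 0.080. Differences were positive for 9 and negative for 3. At an unadjusted p under 0.05 limma had 2 higher and 1 lower, against 5.55% and 7.49% of all genes tested. Gpr15, a colon-homing receptor that TGF-beta induces in T cells, read 4.88, 4.99, 4.85 and 4.67 in RaptorKO 1 to 4, against 5.41, 5.48, 5.41 and 6.12 in WT 1 to 4. Its RaptorKO values lay near the 40th percentile of the arrays (4.69 to 4.81), so the fall is measured against dim signal. Gpr15 fell by 0.76 (SE 0.16, limma adjusted p = 0.0314). It kept its call without RaptorKO 2 or without WT 4, and lost it without RaptorKO 1, RaptorKO 3, RaptorKO 4, WT 1, WT 2 or WT 3 (-0.82 to -0.70, limma adjusted p between 0.0529 and 0.0898). It was also lost when every probe set was tested (limma adjusted p = 0.0548) and within each replicate set alone (-0.51 and -1.01, limma adjusted p = 0.30 and 0.104). Of the repressed genes 13 of 15 were tested and 0 were called, with a median of -0.054. In limma 2 had an unadjusted p under 0.05, against 13% of all genes tested. Those 2 were Myc, the growth regulator (0.37, SE 0.11, limma adjusted p = 0.138), and Id3, an inhibitor of E proteins (-0.37, SE 0.12, limma adjusted p = 0.183). Myc was called in 1 of 23 alternative fits, the one with an intensity trend (limma adjusted p = 0.027).

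**Figure D4:**
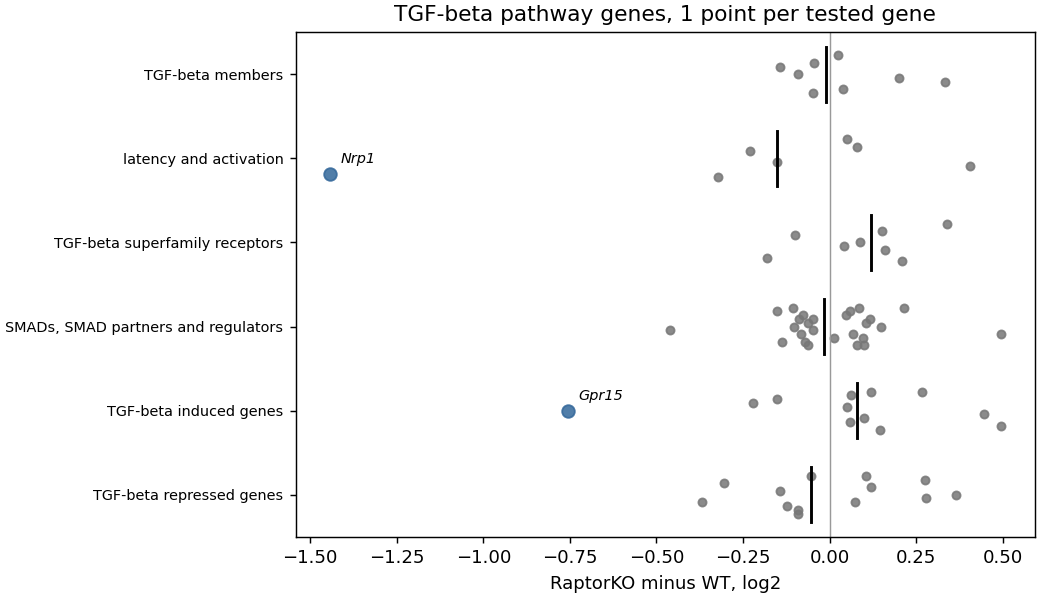
Difference between RaptorKO and WT (x axis, log2) for each tested gene of the 8 TGF-beta genes and of the 5 further lists; grey points did not pass the test, blue points are the called genes Nrp1 and Gpr15, and black bars are list medians. The 8 genes lie between -0.14 and 0.33, and the list medians between -0.15 and 0.12.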

How the data were processed

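Sorted CD4+CD25+ cells were profiled on 8 one-colour arrays, 4 RaptorKO and 4 WT. The deposited values are log2 intensities per probe set, for which the submitters' processing notes name RMA without a version, and no further normalization was applied. The table held 45141 probe sets, 104 of them controls. Of the probe sets 28898 listed 1 gene (28689 updated through Entrez identifiers to RefSeq symbols, GRCm38.p6), 551 listed several and 15692 none; probe sets with several or none were not named. Group and replicate came from the sample titles.

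The RaptorKO and WT arrays were fitted by genotype in limma 3.58.1 (lmFit and eBayes under R 4.3.3, no covariates, two-sided), with 1 probe set per gene and 11413 of 17097 genes past the filter. A call meant an adjusted p (Benjamini-Hochberg) below 0.05. The scripts were tested on simulated data, and matplotlib 3.10.9 (Python 3.11.15) drew the figures. Named by rule were the 8 TGF-beta genes, Rptor, Foxp3, Il2ra and Cd4. Of each pathway list, up to 6 called genes were named or, with none called, the 2 with the smallest p. Itgav, Nrros, Cd8a, Cd8b1, Nkg7 and Hba-a1 were named outside this rule, after their values were seen. Their dependence on the processing was not examined. The genes and lists were chosen with earlier results of these data known. Alternatives changed the probe sets of a gene, filter, normalization, variance, replicate block, replicate sets, macrophage covariate and arrays.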

Additional observations from a re-analysis of the deposited data

Results flagged for a closer look

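Among the genes named and the further probe sets of the TGF-beta genes, 60 groups of 4 arrays were searched for an array far from the other 3 (Dixon's test at its 95% critical value for 4 samples). Chance gives such an array in about 1 in 20 groups, and 2 of the 60 groups had one. Nrp1 read 8.68 in WT 2, and the nearest WT array read 9.23; without WT 2 the fall was larger (-1.59). Gpr15 read 6.12 in WT 4, and the nearest WT array read 5.48; without WT 4 its difference was -0.58 and stayed called. None of the 8 TGF-beta genes had such an array in either genotype, in any of their 18 probe sets.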

How the results depend on the processing

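The labels do not say whether the replicate numbers pair the samples. Same-numbered arrays fell in the same replicate set, with the same Xist and Eif2s3y state. Correlations of their deviations from the group means lay between -0.15 and 0.16, and such values cannot exclude a pairing. With the replicate number as a block the number of genes called was 175, the TGF-beta genes called 0 and the other pathway genes called 1 (Gpr15 -0.76, limma adjusted p = 0.0576). Of the 8 TGF-beta genes 0 were called under any of the 23 alternatives. The 224 genes called became 370 with an intensity trend, 9 within replicates 1 and 2 alone and 85 within replicates 3 and 4 alone, and between 98 and 251 with 1 array left out. The 2 other pathway genes called became 3 with an intensity trend (Myc added, limma adjusted p = 0.027), 1 with a 60th percentile filter, which Gpr15 did not pass, 1 with the macrophage covariate, 0 within replicates 1 and 2, 1 within replicates 3 and 4, and between 1 and 3 with 1 array left out. The interaction between genotype and replicate set was called for 3 of 27343 probe sets when each was tested. Signs turned only for differences near 0 that were never called. Tgfb1 was -0.065 with array weights and -0.23 within replicates 3 and 4 (-0.10 to 0.14 with 1 array left out). Smad2 was 0.16 and Smad4 0.041 within replicates 1 and 2 (-0.17 to 0.020 and -0.095 to 0.000102 with 1 array left out), and Smad4 was 0.013 with the macrophage covariate. Smad7 was -0.032 with array weights and -0.074 within replicates 3 and 4 (-0.13 to 0.14 with 1 array left out). Il2ra was -0.081 averaged over its probe sets and -0.057 within replicates 3 and 4 (-0.032 to 0.077 with 1 array left out). The causes were not tested. With 4 arrays a group, of the main probe sets of the TGF-beta genes only Tgfbr1 had a 95% interval that left out 0 (0.021 to 0.64).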
